A study of Mus musculus with 74 samples.

Results

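The Zfp genes are the mouse genes named for a zinc finger protein and a number. H3K9me3, trimethylation of lysine 9 of histone H3, is described here over the bodies of 338 of them, chosen by name and position only from the 20722 autosomal protein-coding genes of GENCODE vM21 on mm10 (GRCm38). A member had a symbol of Zfp followed by digits alone. The 18 such genes of chromosome 4 beyond 145 Mb were set apart by this rule, and 2 more (Zfp42 and Zfp352) were left out. At the edge on chromosome 4, the last member was Zfp46 (chr4:136284683-136293942), whose last exon was covered by peaks for 7.26% in CC and 56.7% in TE, and the first gene outside was Zfp990 (chr4:145510759-145539188), with 100% in both.

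The study followed H3K9me3 from donor cell to blastocyst in somatic cell nuclear transfer (SCNT), in which the nucleus of a body cell is injected into an oocyte freed of its own chromosomes. Chromatin was cut with micrococcal nuclease and precipitated without crosslinking by an antibody against H3K9me3 from Active Motif, a method for small cell numbers called ULI-NChIP-seq, and an input without antibody was sequenced beside it. The labels give 74 libraries, 41 precipitates and 33 inputs. They are represented by 10 peak lists, 1 pooled list for each stage or cell type, and no list can be split into its replicates.

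The donors were cumulus cells (CC), the somatic cells that surround the oocyte, of B6D2F1 mice, and B6D2F1 females also gave the oocytes. The cloned embryos were activated for 6 h in SrCl2 with cytochalasin B, which keeps a polar body from being shed, and were collected at 6 and 14 hours post activation (hpa), at the 2-cell, 4-cell and 8-cell stage, as Morula, and as blastocysts taken apart by hand into ICM, the inner cells that form the embryo, and TE (trophectoderm), the outer layer that forms placenta. The only fertilized group was the zygote at pronuclear stage 5 (PN5), from superovulated C57BL/6 females mated with C57BL/6 males. According to the methods, the fertilized data came from an earlier publication, so mode of conception, strain and study cannot be told apart between PN5 and any other list. Behind a list stood 2 precipitates each for PN5, TE and ICM, 3 for 4-cell, 4 for CC and 14 hpa, 5 for 6 hpa, 6 for 2-cell and Morula, and 7 for 8-cell. Inputs were as many as precipitates in every list but 2-cell (2 inputs), 8-cell (4) and Morula (5). The labels do not say from which animals or embryos each library came. A morula or blastocyst list can hold only embryos that developed so far.

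Most Zfp proteins carry a row of C2H2 zinc fingers, each of which can read a few bases of DNA, and a large family of them also carries a KRAB domain. KRAB binds TRIM28 (KAP1), which brings the methyltransferase SETDB1, and so KRAB zinc finger proteins direct H3K9me3 to the sequences that their fingers recognise, many of them retrotransposons. The genes lie in tandem clusters that grew by duplication. Usually the whole row of fingers is coded by the last exon, and in several cell types that exon is itself known to carry H3K9me3.

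A feature was called marked where merged peaks covered at least 50% of its bases. Among the 338 members the median was 10 zinc fingers, 255 had every finger in the last exon and 14 had no match to the finger pattern. The last exon had a median length of 2524 bases, 15.5% of the gene body, against 1180 bases and 6.16% over all autosomal protein-coding genes. A KRAB-like stretch was found in 171 members. The pattern behind that count misses diverged domains, as only 7 of 9 KRAB genes on a list fixed by name matched it.

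The following stretches of finger-coding DNA show what the last exons hold and how they differ in base composition. Each reads 5′ to 3′ on the coding strand, from 1 linker to the next but one, with the codons of the conserved linker between fingers in capitals and the 2 fingers between them in lower case. Zfp708 (chr13:67070762-67070944, minus strand), Zfp932 (chr5:110008900-110009082, plus strand) and Zfp977 (chr7:42579954-42580136, minus strand) were marked in CC, unmarked at 6 hpa and marked again in the blastocyst. Zfp180 (chr7:24105598-24105780, plus strand) and Zfp27 (chr7:29894499-29894681, minus strand) were marked in every list, and Zfp101 (chr17:33381458-33381640, minus strand) had no peak on its last exon in any.
Zfp708: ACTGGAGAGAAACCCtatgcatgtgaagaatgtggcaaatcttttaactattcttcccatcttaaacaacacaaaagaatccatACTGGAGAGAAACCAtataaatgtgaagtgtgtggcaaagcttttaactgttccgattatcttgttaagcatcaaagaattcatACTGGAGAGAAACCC
Zfp932: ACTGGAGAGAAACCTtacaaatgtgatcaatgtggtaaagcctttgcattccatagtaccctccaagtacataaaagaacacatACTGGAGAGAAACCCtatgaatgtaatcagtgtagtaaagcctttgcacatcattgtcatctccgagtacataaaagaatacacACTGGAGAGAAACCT
Zfp977: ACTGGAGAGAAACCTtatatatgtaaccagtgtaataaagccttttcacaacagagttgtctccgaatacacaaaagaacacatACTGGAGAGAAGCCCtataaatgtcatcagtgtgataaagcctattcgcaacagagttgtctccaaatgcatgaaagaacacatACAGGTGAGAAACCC
Zfp180: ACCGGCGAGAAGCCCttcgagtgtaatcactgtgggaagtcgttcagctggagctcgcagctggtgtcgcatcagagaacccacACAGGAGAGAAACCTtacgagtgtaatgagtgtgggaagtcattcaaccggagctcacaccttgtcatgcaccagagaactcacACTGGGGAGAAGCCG
Zfp27: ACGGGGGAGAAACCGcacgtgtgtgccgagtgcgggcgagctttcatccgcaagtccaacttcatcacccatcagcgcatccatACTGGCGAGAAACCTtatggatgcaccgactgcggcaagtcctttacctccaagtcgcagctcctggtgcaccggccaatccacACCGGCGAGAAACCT
Zfp101: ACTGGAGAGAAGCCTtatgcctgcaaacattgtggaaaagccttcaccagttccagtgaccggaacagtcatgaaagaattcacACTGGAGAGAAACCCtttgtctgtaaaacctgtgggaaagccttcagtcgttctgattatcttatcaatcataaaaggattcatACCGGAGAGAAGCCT

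Of the 183 bases of each stretch, G and C made up 36.6% in Zfp708, 38.8% in Zfp932, 39.3% in Zfp977 and 43.7% in Zfp101. They made up 54.6% in Zfp180 and 59.0% in Zfp27. The closest pair was Zfp932 and Zfp977, with the same base at 78.1% of positions, and the most distant were Zfp977 and either Zfp180 or Zfp27, at 52.5%. Such resemblance can make reads ambiguous, and 28 members had fewer than 90% of the 100-base words of their last exon unique in the genome (310 had at least that). Zfp932 was among them with 71.9%.

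Last exons of Zfp genes were marked in donor cells, largely unmarked through cleavage and marked again in the blastocyst. In CC 106 members (31.4%, Wilson 95% interval 26.6 to 36.5%) had a marked last exon, against 5.40% of all autosomal protein-coding genes. At 6 hpa there were 29 (8.58%, 6.04 to 12.1%), against 5.74% of all genes. By 14 hpa the number was 45 (13.3%, 10.1 to 17.4%, all genes 4.98%).

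Cleavage stages held the lowest numbers. The 2-cell list marked 25 members (7.40%, 5.06 to 10.7%, all genes 3.21%), the 4-cell list 26 (7.69%, 5.30 to 11%, all genes 3.99%) and the 8-cell list 31 (9.17%, 6.54 to 12.7%, all genes 4.21%). The number was 64 in Morula (18.9%, 15.1 to 23.5%, all genes 3.83%). Blastocyst tissues carried most, with 111 in ICM (32.8%, 28.1 to 38%, all genes 3.0%) and 114 in TE (33.7%, 28.9 to 38.9%, all genes 2.78%). From 8-cell to ICM the share among all genes was lower while that among the members was higher. PN5 marked 26 members (7.69%, 5.30 to 11%), beside 6.18% of all genes, which lies within the interval. The intervals treat members as independent and cover counting error only.

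The number of marked members did not follow the length that peaks covered in a list. CC peaks covered 255 Mb, 14 hpa peaks 237 Mb, and those of ICM and TE only 173 and 161 Mb. With each list trimmed to the 134 Mb of PN5 by dropping peaks of lowest q, 80 members were marked in CC, 29 at 6 hpa, 23 at 14 hpa, 54 in Morula, 106 in ICM and 111 in TE. The shares were then 23.7% in CC (all genes 2.99%), 8.58% at 6 hpa (4.86%), 6.80% at 14 hpa (2.52%), 16% in Morula (2.32%), 31.4% in ICM (2.31%) and 32.8% in TE (2.52%). At equal length 14 hpa no longer had more marked members than 6 hpa, while both shares stayed above those of all genes.

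**Figure D1:**
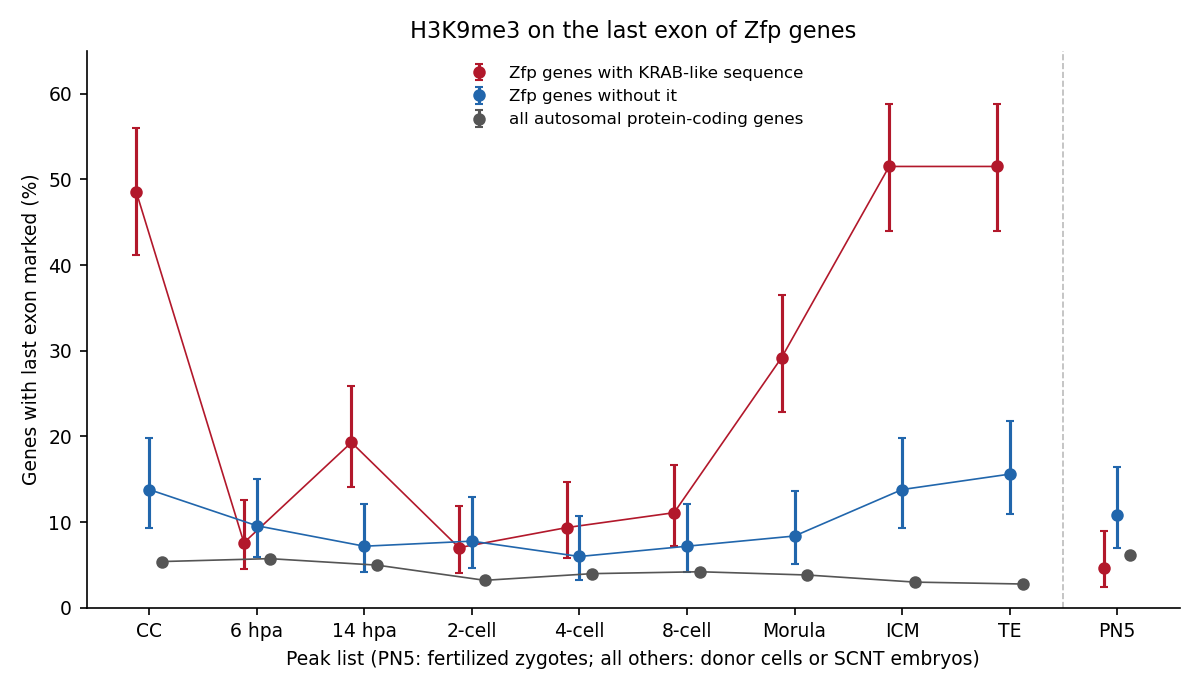
Share of genes whose last exon was covered by H3K9me3 peaks for at least 50% (vertical axis, percent) in each of the 10 peak lists (horizontal axis), for Zfp genes with and without KRAB-like sequence and for all autosomal protein-coding genes. Bars are Wilson 95% intervals and lines join the SCNT series. The KRAB-like genes stood at 48.5% in CC, 7.60% at 6 hpa and 51.5% in ICM and TE.

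KRAB-like members accounted for most of this. Their last exons were marked in 83 of 171 in CC (48.5%, 41.2 to 56.0%), 13 at 6 hpa (7.60%, 4.50 to 12.6%) and 33 at 14 hpa (19.3%, 14.1 to 25.9%). They were marked in 12 at the 2-cell, 16 at the 4-cell and 19 at the 8-cell stage. Morula held 50 (29.2%, 22.9 to 36.5%), and ICM and TE 88 each (51.5%, 44.0 to 58.8%). PN5 held 8 (4.68%, 2.39 to 8.96%), no more than the share of all genes.

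The 167 members without KRAB-like sequence moved over a narrower range. Their marked last exons were fewest in 4-cell, with 10 (5.99%). The 14 hpa and 8-cell lists had 12 each (7.19%), 2-cell 13 (7.78%), Morula 14 (8.38%) and 6 hpa 16 (9.58%). CC and ICM had 23 each (13.8%, 9.36 to 19.8%) and TE 26 (15.6%). In PN5 18 were marked (10.8%, 6.93 to 16.4%), more than the 8 KRAB-like members. The 2 groups also differed in fingers (a median of 12 against 8) and in the G and C content of the last exon (a median of 40.8% against 47.8%).

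The mark seldom filled the gene. A gene body marked as a whole was found for 28 members in CC (8.28%, against 4.12% of all genes), 2 at 6 hpa (0.592%, against 3.30%), 8 at 14 hpa (2.37%, against 2.91%) and 1 at the 2-cell stage (0.296%, against 1.63%). There were 2 at the 4-cell stage (0.592%, against 2.08%), 1 at the 8-cell stage (0.296%, against 2.10%) and 3 in Morula (0.888%, against 1.53%). ICM had 11 (3.25%, against 0.956%), TE 12 (3.55%, against 0.791%) and PN5 3 (0.888%, against 2.00%). From 6 hpa to Morula the share of marked gene bodies was below that of all genes, but this order depended on the threshold. At 25% coverage it turned at 14 hpa (10.1% of members against 6.26% of all genes), 2-cell (4.44% against 3.82%), 8-cell (5.92% against 5.72%) and Morula (8.58% against 4.57%), as it did in PN5 (7.69% against 6.25%), and at equal covered length it turned in Morula (0.888% against 0.820%).

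Few genes carried the body mark outside CC and the blastocyst. They were Zfp114 and Zfp575 at 6 hpa, these 2 with Zfp109, Zfp110, Zfp433, Zfp781, Zfp873 and Zfp936 at 14 hpa, Zfp575 at the 2-cell stage, Zfp536 and Zfp575 at the 4-cell stage, Zfp109 at the 8-cell stage, Zfp110, Zfp273 and Zfp629 in Morula, and Zfp109, Zfp526 and Zfp688 in PN5. All 11 members with a marked body in ICM also had one in TE (Zfp110, Zfp263, Zfp273, Zfp445, Zfp524, Zfp629, Zfp646, Zfp747, Zfp809, Zfp873 and Zfp977), and Zfp27 was the twelfth in TE. These and other short lists were named after their values were seen.

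Within the 334 members with more than 1 exon, peaks covered on average 30.0% of the last exon and 10.7% of the rest of the gene in CC. In ICM the means were 32.7% and 8.58%, and in TE 34.0% and 9.29%. At the 2-cell stage they were 9.03% and 2.97%, and in PN5 9.97% and 5.73%. The median difference over all 334 was 0 in every list, since so many members had no peak. The last exon was the more covered part in more members in CC (133 against 73), 8-cell (87 against 63), Morula (123 against 62), ICM (147 against 66) and TE (159 against 61). The rest of the gene was so at 6 hpa (135 against 94), 14 hpa (96 against 90), 2-cell (62 against 60), 4-cell (68 against 63) and PN5 (125 against 71). The last exon was covered for at least 50 percentage points more than the rest in 78 members in CC, 20 at 6 hpa, 98 in ICM and 95 in TE, and the reverse held for 1, 0, 1 and 1. Over the 19355 autosomal protein-coding genes with more than 1 exon, the means were 5.11% and 5.06% in CC and 3.26% and 2.98% in ICM. Among these genes the last exon led by at least 50 points in 347 in CC, 560 at 6 hpa, 434 in ICM and 405 in TE. The reverse held for 107, 180, 39 and 25.

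In KRAB-like members the median difference was 17.7 percentage points in CC, 7.56 in Morula, 33.3 in ICM and 37.1 in TE, and 0 in the other 6 lists. At equal covered length it was 0 in CC and Morula. The last exon was the more covered part in 108 of these 171 genes in CC and the rest of the gene in 22. The rest was the more covered part in more of them at 6 hpa (63 against 53), in 2-cell (36 against 34) and in PN5 (71 against 31). Over all genes with more than 1 exon the rest led in every list, with 7529 against 1379 in CC and 8758 against 2500 in PN5.

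**Figure D2:**
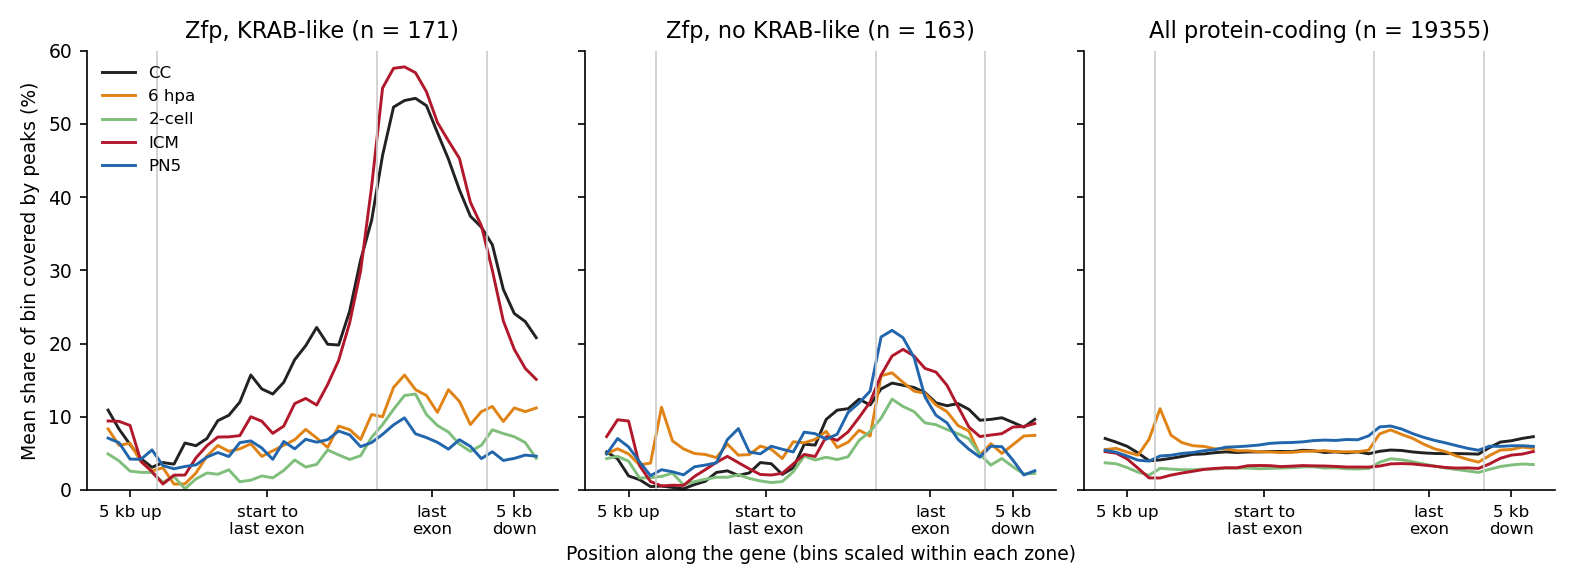
Mean share of bases covered by peaks (vertical axis, percent) along genes with more than 1 exon, from 5 kb before the start to 5 kb past the last exon, in bins scaled within each zone. Lines are peak lists and panels are gene groups, with the number of genes. In KRAB-like Zfp genes the last exon reached 57.8% in ICM and 53.5% in CC, against 13.1% at the 2-cell stage, and the start of the gene fell to 0.807% in ICM.

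Within the last exon, the finger codons were covered more than the remainder. In the 255 members with all fingers in the last exon, the finger-coding span was covered for 44.6% on average in CC and the remainder of the last exon for 33.8%. The corresponding means were 20.4% and 9.84% in 8-cell, 36.2% and 21% in Morula and 49.8% and 36.1% in ICM. The fingers were the more covered part in 71 members and the less covered in 9 in CC, in 84 against 13 in Morula and in 33 against 26 in PN5. Where only the coding bases of the last exon were counted, 100 members were marked in Morula (29.6%, against 5.43% of all genes) and 52 at the 8-cell stage (15.4%, against 6.45%). Promoters, taken as 1 kb on either side of the annotated start, were marked in 5 members in CC (Zfp229, Zfp735, Zfp872, Zfp936 and Zfp977), 9 at 6 hpa and 2 each in ICM (Zfp541 and Zfp872) and TE (Zfp541 and Zfp668). These were 1.48%, 2.66%, 0.592% and 0.592% of members, below the 3.74%, 7.18%, 1.14% and 1.04% of all genes.

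Fold enrichment over input, as the authors' peak caller gave it, was moderate on these exons. The highest fold on a marked last exon had a median of 3.30 in CC, 3.03 at 6 hpa, 3.81 in ICM and 4.06 in TE, and reached at most 6.78 (14 hpa). Over all peaks of a list the median fold was 2.70 in CC, 2.73 at 6 hpa, 3.02 in ICM and 3.0 in TE. These are unlike measures, since the first takes the highest of all peaks on an exon and the second takes single peaks.

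Gene by gene, 157 members (46.4%) had a marked last exon in at least 1 list, 108 of them KRAB-like, and 181 in none. That share was not counted over all genes, of which each single list marked 2.78 to 6.18%. Only Zfp180, Zfp27 and Zfp61 were marked in all 10 lists, and Zfp2, Zfp316, Zfp663, Zfp777 and Zfp810 in 9. ICM held 83.0% of the members marked in CC, and CC held 79.3% of those marked in ICM (88 genes in both). Over all autosomal protein-coding genes these shares were 30.3% and 54.6%. Of the members marked at the 8-cell stage ICM held 83.9%, but these were only 23.4% of those in ICM (29.8% and 41.9% over all genes). CC and PN5 shared 5 members (Zfp180, Zfp27, Zfp286, Zfp60 and Zfp61), 4.72% of those in CC and 19.2% of those in PN5 (13.9% and 12.1% over all genes).

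A run of members was marked in CC, ICM and TE and in none of the 2-cell, 4-cell and 8-cell lists. There were 61 of these, 52 of them KRAB-like and 42 in clusters. In 22 the gap ran from 6 hpa to Morula, among them Zfp160, Zfp260, Zfp345, Zfp426, Zfp442, Zfp445, Zfp59, Zfp667, Zfp867 and Zfp932. By contrast 42 members were marked in at least 1 of the 3 cleavage lists, 25 of them KRAB-like, and 15 in all 3. CC and each SCNT list to TE marked 7 (Zfp180, Zfp2, Zfp27, Zfp316, Zfp61, Zfp663 and Zfp810). In CC but in neither blastocyst tissue there were 17, among them Zfp105, Zfp111, Zfp382, Zfp647 and Zfp945, and 13 of the 17 were in no other list at all. The reverse, ICM or TE without CC, held 29, among them Zfp12, Zfp13, Zfp28, Zfp69, Zfp747, Zfp777 and Zfp82. None of these patterns was counted over all genes, so the counts have no background beside them.

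**Figure D3:**
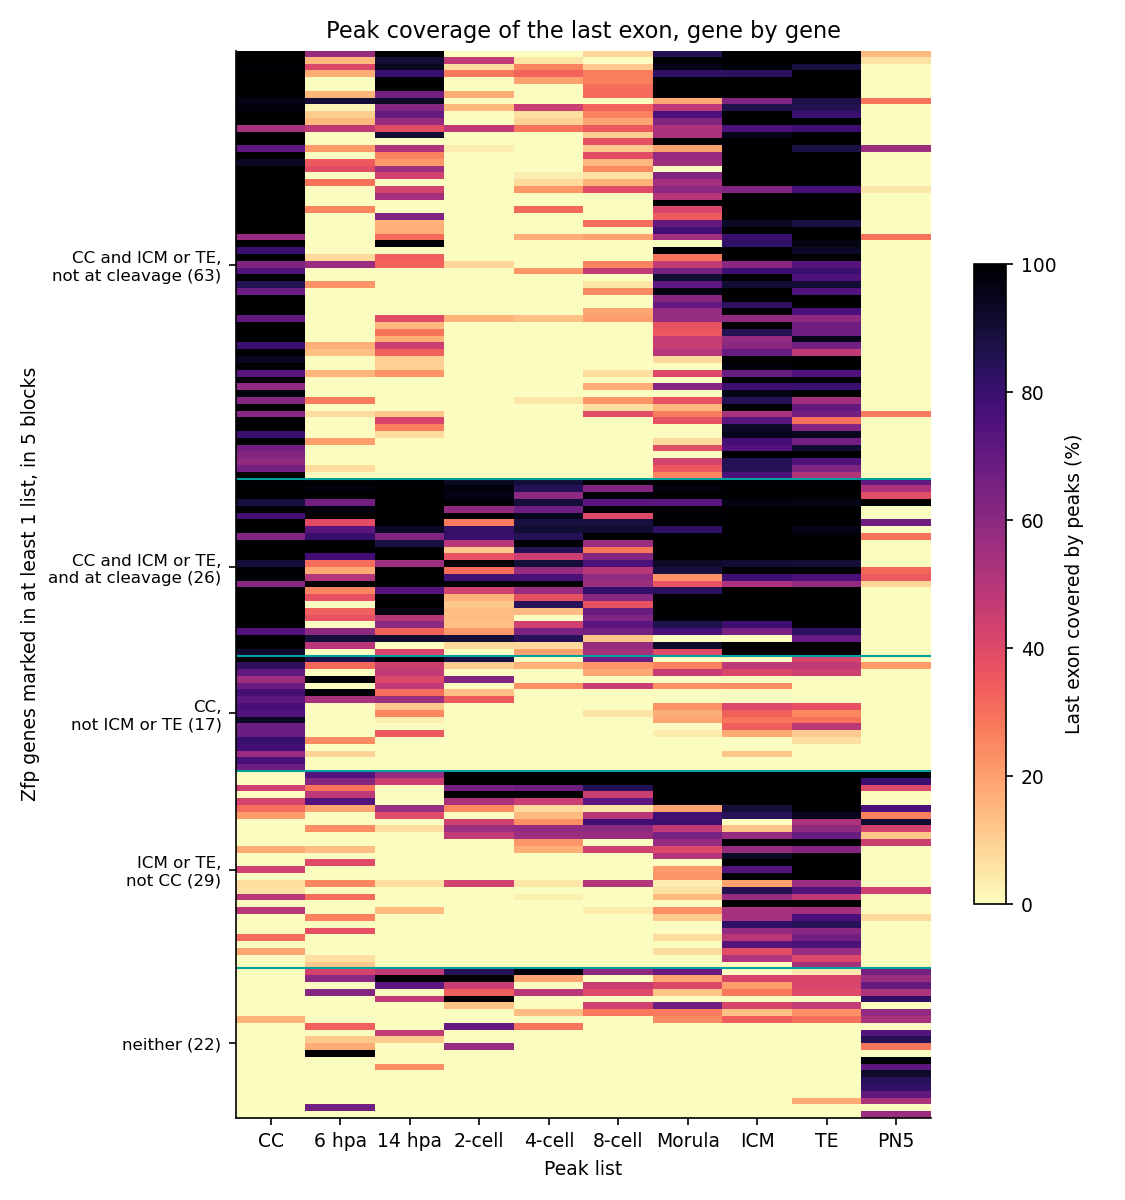
Coverage of the last exon by peaks (colour, 0 to 100%) for the 157 Zfp genes marked in at least 1 list (rows) in the 10 lists (columns). Rows are set in 5 blocks by where they were marked, with the number of genes, and ordered by mean coverage within a block. The first block holds 63 genes marked in CC and in ICM or TE and in no cleavage list, of which 3 were marked at 6 hpa, 17 at 14 hpa and 31 in Morula.

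From CC to 6 hpa, the first hours after transfer and activation, most donor marks on Zfp last exons were no longer found. Marked in CC and not at 6 hpa were 84 members (24.9%, 20.5 to 29.7%), against 3.37% of all genes, and 72 of them were KRAB-like. The reverse was seen for 7 (2.07%, 1.01 to 4.21%), against 3.71% of all genes: Zfp362, Zfp423, Zfp580, Zfp69, Zfp777, Zfp787 and Zfp853. At 6 hpa 20.8% of the members marked in CC stayed marked, and 37.5% of all genes so marked. Of the 84 members, 56 had at most 10% coverage at 6 hpa, and the others kept partial coverage. Any peak on the last exon was found in 138 members in CC and 113 at 6 hpa.

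Base composition moved with this change. Last exons marked in both lists had a median G and C content of 47.8% (22 members), those marked in CC alone 37.8% (84) and those marked at 6 hpa alone 57.2% (7). Below 38% G and C, 43 of 66 members were marked in CC and none at 6 hpa. At 46% or more, 18 of 130 were marked in CC and 18, not all the same, at 6 hpa. These limits were set after the values were seen. Among all autosomal protein-coding genes, the share of marked last exons below 38% G and C was 6.96% in CC, 0.840% at 6 hpa, 1.11% in 2-cell, 3.63% in ICM and 1.01% in PN5. At 46% or more it was 3.05%, 8.86%, 4.54%, 2.56% and 9.75%. The part of base composition in the counts of members was not tested.

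**Figure D4:**
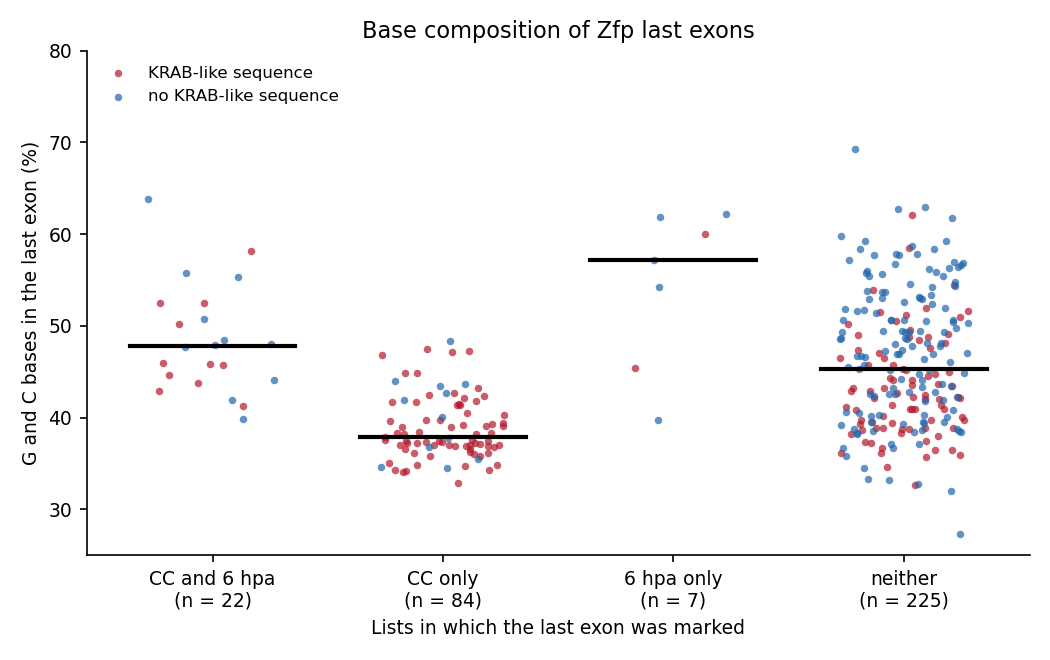
Share of G and C bases in the last exon (vertical axis, percent) of the 338 Zfp genes, set apart by whether the last exon was marked in CC, at 6 hpa, in both or in neither. Each point is 1 gene, coloured by KRAB-like sequence, and black bars are medians. Genes marked in CC only had a median of 37.8%, genes marked in both 47.8%.

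Zfp977, Zfp97 and Zfp960, KRAB-like genes, fell from 100% in CC to 0 at 6 hpa, as did 28 members in all, from which these were taken by the larger fall over the gene body. Zfp977 stayed at 0 until the 8-cell stage and was at 100% in Morula, ICM and TE. Zfp97 and Zfp960 were back at 100% by 14 hpa, but only 33.4% and 32.4% of their 100-base words were unique, so reads of these neighbours may have been shared. In the other direction Zfp423, a transcription factor of fat cell precursors, had 100% at 6 hpa and 0 in every other list, and none of its fingers lie in the last exon. Zfp777 went from 0 in CC to 73.9% at 6 hpa, was at 58.1% at 14 hpa and at 100% from the 2-cell stage to TE as well as in PN5. Zfp580 was at 66.2% at 6 hpa and at 0 elsewhere.

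Between 6 and 14 hpa, 25 members were marked only at 14 hpa (7.40%, against 2.69% of all genes) and 9 only at 6 hpa (2.66%, against 3.45%). At equal covered length these numbers were 9 and 15, so the direction turned. Zfp433, Zfp97 and Zfp960 rose from 0 to 100%, as did 4 members in all, and just 11.8% of the 100-base words of Zfp433 were unique. Zfp423, Zfp69 and Zfp647 had the largest falls, from 100%, 74.0% and 100% to 0, 0 and 30.2%.

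Set directly against the donor cells, the 14 hpa list left unmarked 65 of the members marked in CC (19.2%, against 2.78% of all genes). It marked 4 that CC did not (1.18%, against 2.36%), which were Zfp362, Zfp706, Zfp777 and Zfp964. Of the 65, 52 were KRAB-like, and 34 had at most 10% coverage at 14 hpa. Zfp263, Zfp85 and Zfp977 were at 100% in CC and 0 at 14 hpa. The 3 were again at 100% in ICM and TE.

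From 14 hpa to the 2-cell stage 30 members were marked only in the earlier list (8.88%, against 3.02% of all genes) and 10 only in the later (2.96%, against 1.25%). At equal covered length they were 12 and 13. Zfp433, Zfp97 and Zfp949 fell from 100% to 0, and Zfp13 rose from 0 to 100%, Zfp648 from 0 to 69.7% and Zfp12 from 0 to 64.9%. Zfp12 and Zfp13, both KRAB-like, then reached 100% in Morula, ICM and TE.

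Few members were marked at the cleavage stages, so the numbers that changed between them were small as well. The 4-cell list held 72.0% of the members marked in 2-cell (59.3% over all genes). The 8-cell list held 76.9% of those marked in 4-cell (62.9% over all genes). Only the 2-cell list marked 7 members (2.07%, against 1.31% of all genes) and only the 4-cell list 8 (2.37%, against 2.08%). These numbers turned to 6 and 5 at equal covered length, and to 4 and 0 where at most 10% coverage was allowed in the other list. The largest rises were those of Zfp369 (11.4 to 85.1%), Zfp960 (11.5 to 83.6%) and Zfp286 (27.7 to 87.5%), and the largest falls those of Zfp683 (100% to 0), Zfp114 (87.6% to 0) and Zfp362 (100 to 18.6%). From 4-cell to 8-cell 6 were marked only before (1.78%, against 1.48%) and 11 only after (3.25%, against 1.70%). Here Zfp114 rose to 67.4%, Zfp873 from 0 to 62.9% and Zfp672 from 23.2 to 78.6%, and Zfp536, a repressor of neuronal differentiation, fell from 84.2 to 12.3%, Zfp369 to 28.2% and Zfp112 from 94.3 to 39.7%.

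More Zfp last exons were marked in Morula than at the 8-cell stage. From 8-cell to Morula 39 members were marked only in Morula (11.5%, 8.56 to 15.4%), against 1.75% of all genes, and 34 of them were KRAB-like. Only 6 were marked at 8-cell alone (1.78%, against 2.13%). Zfp959, Zfp977 and Zfp936 went from 0 to 100%. Zfp114, with 31.5% of its words unique, went from 67.4% to 0, Zfp46 from 50.4 to 3.82% and Zfp109 from 58.7 to 23.0%. Those new in Morula had a median coverage of 20.2% already at the 8-cell stage and a median G and C content of 37.6%.

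From Morula to ICM 50 members were marked only in ICM (14.8%, 11.4 to 19.0%, against 1.25% of all genes) and 3 only in Morula (0.888%, against 2.08%). From Morula to TE the numbers were 52 (15.4%, 11.9 to 19.6%, against 1.20%) and 2 (0.592%, against 2.25%). KRAB-like members gave 38 of the 50 and 38 of the 52, and none of those marked only in Morula, which were Zfp11 and Zfp831 in both pairs and Zfp672 against ICM. In both tissues Zfp747, Zfp445 and Zfp599 went from 0 to 100%. Zfp831 fell from 68.7% to 0 in ICM and to 4.00% in TE.

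ICM and TE carried nearly the same marks on Zfp last exons, with 107 members in both. TE held 96.4% of the members marked in ICM, and 68.8% of all genes so marked. Only 4 were marked in ICM alone (1.18%, against 0.936% of all genes): Zfp39, Zfp619, Zfp975 and Zfp994, all KRAB-like. Only 7 were marked in TE alone (2.07%, against 0.719%): Zfp248, Zfp282, Zfp46, Zfp536, Zfp553, Zfp672 and Zfp952. Zfp536 had the largest difference, with 0 in ICM and 68.8% in TE, followed by Zfp553 and Zfp672 (0 in ICM, 53.4 and 52.1% in TE). In the other direction Zfp975 had 72.3% in ICM and 29.8% in TE, Zfp943 100% and 67.2%, and Zfp94 30.4% and 0. Each tissue was separated by hand and had 2 precipitates.

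The 14 hpa SCNT embryo and the PN5 zygote, both at the 1-cell stage, shared 9 members. Marked at 14 hpa alone were 36 (10.7%, 7.79 to 14.4%, against 3.46% of all genes), 28 of them KRAB-like. In PN5 alone 17 were marked (5.03%, 3.16 to 7.91%, against 4.66%), 3 of them KRAB-like. At equal covered length 17 were marked at 14 hpa alone and 20 in PN5 alone, so the direction turned. The last exons of Zfp646 and Zfp408 were at 100% and 91.5% in PN5 and at 0 in every other list. The gene body of Zfp646, however, was covered for 44.6% in PN5, 55.3% in ICM and 61.1% in TE. Zfp114, Zfp433 and Zfp110 were at 100% at 14 hpa and at 0 in PN5. In all, 12 members (3.55%) were marked in PN5 and no other list, 3 of them KRAB-like, among them Zfp202, Zfp276, Zfp324, Zfp407, Zfp526, Zfp574 and Zfp750. The share of all genes marked in PN5 alone was not counted.

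**Figure D5:**
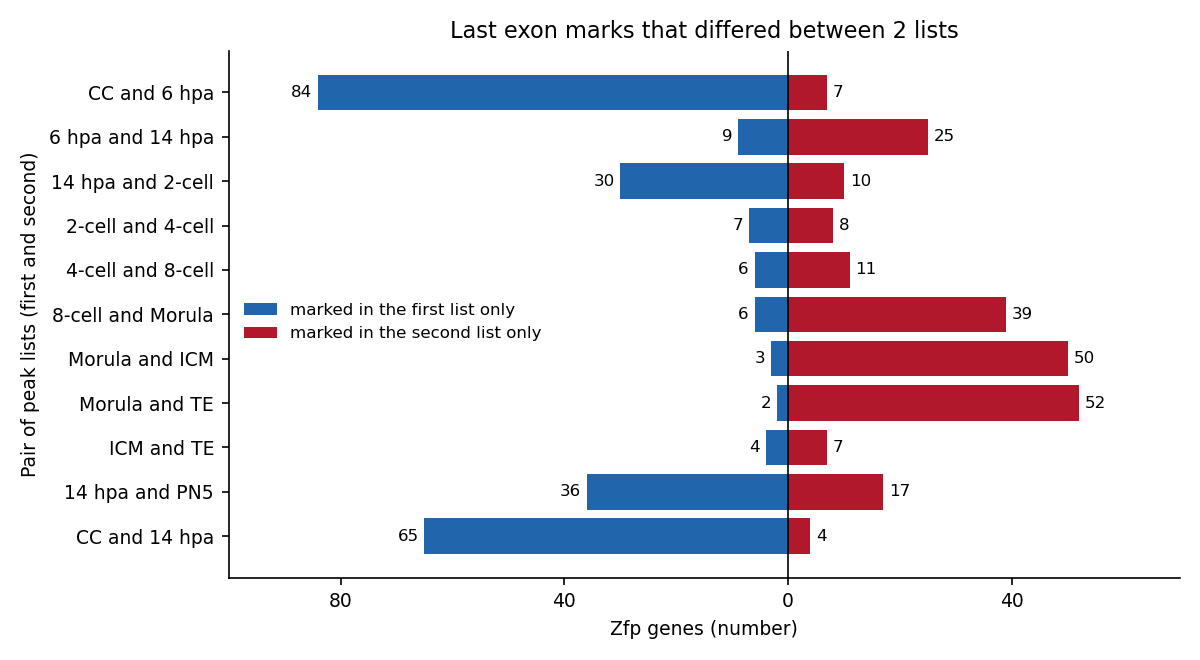
Number of Zfp genes whose last exon was marked in the first list only (left) or in the second list only (right) for the 11 pairs of lists compared. Counts stand beside the bars. The left bar is longest for CC and 6 hpa (84 genes) and the right bar for Morula and TE (52 genes). Lists recur in several pairs, so pairs are not independent.

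KRAB zinc finger genes with a known role did not share 1 pattern. On the list fixed by name, 9 of 10 genes were members (Zfp264 is annotated as a pseudogene). Of the 9, 4 had a marked last exon in CC and 5 in each of ICM and TE. The 14 hpa, Morula and PN5 lists marked 1 each, and those of 6 hpa and cleavage marked none. Zfp445 (chr9:122844529-122866006), a guardian of imprinted methylation, was covered for 62.7% in CC, at 0 from 6 hpa to Morula and in PN5, and for 100% in ICM and TE. Zfp57, which shares that role, had no peak on its last exon in any list.

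Zfp708 (chr13:67069399-67097976), which binds a family of retrotransposons, was covered for 100% in CC, 18.6% in 8-cell, 57.9% in Morula, 100% in ICM and 75.9% in TE, and for 0 in the other lists. Zfp932 (chr5:109996521-110010411), which binds endogenous retroviruses, had 100% in CC, 9.55% at 14 hpa, 98.0% in ICM and 100% in TE, and 0 elsewhere. Zfp809 (chr9:22225714-22243354), which silences proviruses of the murine leukaemia virus type, had 100% in CC and at 14 hpa, 82.2% in ICM and 96.6% in TE, and 0 elsewhere. Its last exon in the transcript used is 321 bases long and codes for none of its 7 fingers. All 3 were marked in donor cells and blastocyst and in none of the cleavage lists.

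Zfp568, which represses a placental transcript of Igf2, reached 7.22% (PN5) and Zfp819 stayed at 0 throughout. Zfp661 was unmarked in CC and at 53.5% in ICM and 76.7% in TE. Zfp473 was marked in PN5 alone, with 52.3%.

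Few last exons of zinc finger genes of other kinds were marked, as among all genes, of which 2.78 to 6.18% were marked in the 10 lists. Of 18 on the second list, all without KRAB-like sequence, the 6 hpa list marked 2 (Zfp423 and Zfp536), the 8-cell, Morula and ICM lists none and each other list 1. Zfp536 was that gene in all of these but PN5. Its coverage was 100% in CC, 89.5% at 6 hpa, 90.9% at 14 hpa, 89.8% in 2-cell and 84.2% in 4-cell, then 12.3% in 8-cell and 0 in Morula and ICM. Zfp750, a regulator of epidermal differentiation, was the 1 in PN5 (56.6%), and Zfp36 (tristetraprolin, a factor of mRNA decay) reached 44.2% at 6 hpa only. Zfp106, Zfp143, Zfp148, Zfp207, Zfp217, Zfp335, Zfp462, Zfp503, Zfp521 and Zfp91 were at 0 in all 10 lists.

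Of 18 genes listed for the H3K9me3 pathway, among them writers, readers and erasers of the mark, no last exon was marked in CC or from 14 hpa to TE. At 6 hpa 2 were (Kdm4b with 62.6% and Uhrf1 with 62.4%) and in PN5 2 others (Trim28 and Dnmt1, both with 100%). No gene body of these was marked in any list. With 18 genes and the shares of all genes given above, such counts lie near the background.

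The 3 members marked in all 10 lists had 48.5% (Zfp180), 47.7% (Zfp27) and 52.5% (Zfp61) G and C in the last exon, above the median of 43.2% over the 338. Zfp180 (chr7:24081924-24107713) had the highest mean coverage, with 100% in CC, at 6 and 14 hpa and from 8-cell to TE, 93.0% in 2-cell, 89.1% in 4-cell and 70.3% in PN5. Zfp27 (chr7:29893333-29906572) ranged from 52.0% in PN5 and 62.8% in 8-cell to 100% in CC, at 14 hpa, in ICM and TE. Zfp2 (chr11:50898712-50916165) was at or above 95.9% in every list but 4-cell (59.7%) and PN5 (38.7%). At the other end, 97 members, 32 of them in clusters, had no peak on the last exon in any list, and Zfp101, Zfp128 and Zfp14, all KRAB-like, stand first among the 32 in order of symbol.

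Clusters differed from each other. Of the 338 members 179 lie in 28 clusters, runs of at least 3 members with gaps of at most 250 kb. Clustered members were marked more often than others in CC (75 of 179, 41.9%, against 31 of 159, 19.5%) and in ICM (43.0% against 21.4%). Among KRAB-like members the order was not so. Of these, 46.1% of 128 clustered and 55.8% of 43 unclustered genes were marked in CC, and 46.9% and 65.1% in ICM. Among members without KRAB-like sequence the order held. There 31.4% of 51 clustered and 6.03% of 116 unclustered genes were marked in CC, and 33.3% and 5.17% in ICM. The interval of that unclustered share in CC (2.95 to 11.9%) included the 5.40% of all genes. At least 1 member was marked in 22 of the 28 clusters in CC, 24 in ICM and 8 at the 2-cell stage.

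The largest cluster (chr13:67038596-67827002, 19 members, all KRAB-like, Zfp708 among them) had 11 marked last exons in CC, 0 at 6 hpa, 1 at 14 hpa, 0 through cleavage, 7 in Morula, 11 in ICM and 11 in TE. The next (chr17:21383748-22456689, 18 members, all KRAB-like) had 9 in CC, 0 from 6 hpa to 8-cell, 3 in Morula, 8 in ICM and 7 in TE. In both, PN5 marked none. A cluster of chromosome 7 (chr7:29768552-30169750, 15 members, 11 KRAB-like, Zfp27 among them) had 7 in CC, 2 at 6 hpa, 4 in 8-cell and 9 in ICM and in TE.

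The cluster of Zfp180 (chr7:24081924-24587641, 12 members, 2 KRAB-like) kept most of its marks after transfer. It held 9 marked last exons in CC, 8 at 6 hpa, 7 at 14 hpa, 6 in 2-cell, 5 in 4-cell and 8-cell, 3 in Morula, 7 in ICM and TE and 2 in PN5. It gave 8 of the 29 members marked at 6 hpa. The fifth (chr17:32765496-33631779, 11 members, 10 KRAB-like, Zfp101 among them) had 2 in CC, 1 in ICM and 2 in TE, so few members of this mostly KRAB-like cluster were marked in any list.

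Members with at least 10 fingers were marked more often than those with fewer in CC and ICM. With 1 to 5 fingers 2 of 57 members were marked in CC and 4 in ICM, with 6 to 9 fingers 15 and 18 of 74, with 10 to 14 fingers 54 and 54 of 124, and with 15 to 33 fingers 33 and 33 of 69. In 2-cell the numbers were 3, 10, 10 and 2. KRAB-like sequence and fingers were not separate. Of members with at least 10 fingers, 53.6% of 125 with KRAB-like sequence and 29.4% of 68 without it were marked in CC, and of those with fewer, 34.8% of 46 and 3.03% of 99.

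Among KRAB-like members of at least 46% G and C, 9 of 33 were marked in CC, 6 at 6 hpa, 9 in 2-cell, 13 in ICM and 4 in PN5. Among the 50 below 38%, 38 were marked in CC, 34 in ICM and none at 6 hpa, in 2-cell or in PN5.

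The 18 Zfp genes of distal chromosome 4 were marked at a higher level, with 94.4% of last exons marked in CC, 38.9% at 6 hpa, 33.3% in 2-cell, 83.3% in ICM, 94.4% in TE and 22.2% in PN5. There the whole gene body was marked in all 18 genes in CC, against 8.28% of the 338 members.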

How the data were processed

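H3K9me3 was measured by ULI-NChIP-seq in cumulus cells, SCNT embryos and fertilized PN5 zygotes. Per the labels and methods, the authors trimmed reads with Cutadapt 1.16, aligned them to mm10 with BWA, merged replicates with SAMtools, removed duplicates and drew the same number of reads per group with Picard, and called broad peaks over input with MACS2. The deposited lists give for each peak a fold enrichment over input, and a p-value and q-value as −log10, all from the authors' peak caller. Lists thus rest on pooled replicates, the depth of single libraries is unknown here, and a list's reach depends on its signal over noise: no peak means no signal above the threshold, not absence. Reads from near-identical genes may have been shared.

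Peaks of a list were merged and intersected with genes of GENCODE vM21. The gene body ran from the gene's start to its end, and the last exon came from 1 transcript per gene. A feature was marked at 50% coverage or more. With 1 list per group there is no replicate error, so no test was made. Counts by list and by pair stand beside the same over all 20722 autosomal protein-coding genes, in part with Wilson 95% intervals. Patterns over more than 2 lists were counted among members only. KRAB-like sequence, C2H2 fingers and linkers were searched in the translated GENCODE coding sequence, in place of the RefSeq proteins first planned, which were not used here. Named genes were 2 role lists and a pathway list fixed by name, up to 3 members with the largest difference each way in each pair (ties by difference over the gene body, then by symbol), the 3 highest and, among clustered members, the 3 lowest by mean coverage (ties by symbol), and the 5 largest clusters. The members and lists were chosen with earlier results of these data known. Alternatives were another threshold, coding bases only, a stricter q, lists trimmed to equal covered length, a limit of 10% in the list called unmarked, symbols with letters included, the last exon of the longest transcript, and members with at least 90% unique words. The scripts were checked on simulated peaks. Python 3.11.15, numpy 2.4.6, pandas 2.3.3, scipy 1.17.1 and matplotlib 3.10.9 were used.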

Additional observations from a re-analysis of the deposited data

How the results depend on the processing

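No paired analysis was possible because each group has 1 pooled list. Leaving out a replicate cannot be done on pooled lists. Of 246 values recomputed under an alternative, 171 stayed within 1.5 times the reported one and 75 did not. The larger side of 4 pairs turned at equal covered length, and in the pair of 2-cell and 4-cell also with the limit of 10%, with the values given beside those pairs. The cause was not tested, except that a lower threshold by construction only adds members.

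For marked last exons, a threshold of 25% gave 63 at 6 hpa, 73 at 14 hpa, 42 in 2-cell, 40 in 4-cell, 58 in 8-cell and 56 in PN5. At 75% there were 16 at 6 hpa, 29 at 14 hpa, 12 in 8-cell, 42 in Morula and 11 in PN5. Coding bases alone gave 49 at 6 hpa, 39 in 2-cell, 40 in 4-cell, 52 in 8-cell, 100 in Morula and 44 in PN5. Lists trimmed to equal length gave 23 at 14 hpa.

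For marked gene bodies, 25% gave 77 in CC, 25 at 6 hpa, 34 at 14 hpa, 15 in 2-cell, 15 in 4-cell, 20 in 8-cell and 29 in Morula, as well as 71 for ICM, 76 for TE and 26 for PN5. At 75% there were 7 in CC, 1 at 6 hpa, 2 at 14 hpa, 1 in 4-cell, 0 in 8-cell and 0 in Morula, as well as 4 for ICM, 4 for TE and 0 for PN5. Equal length gave 15 in CC, 4 at 14 hpa and 1 in 4-cell, a −log10 q of at least 2 gave 1 in 4-cell and 0 in 8-cell, and members with unique words gave 1 at 6 hpa and 5 at 14 hpa.

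For pairs, requiring at most 10% coverage in the unmarked list gave 4 at 6 hpa and 10 at 14 hpa between these 2, 13 at 14 hpa and 6 in 2-cell, 4 in 2-cell and 0 in 4-cell, 0 in 4-cell and 4 in 8-cell, and 2 in 8-cell and 11 in Morula. It gave 17 in ICM and not Morula, 1 in Morula and not TE, 21 in TE and not Morula, 0 in ICM and not TE, 3 in TE and not ICM, 11 in PN5 and not 14 hpa and 34 in CC and not 14 hpa. Equal length gave 15 at 6 hpa and not CC, 15 at 6 hpa and not 14 hpa, 9 the other way, 12 at 14 hpa and not 2-cell, 5 in 4-cell and not 2-cell, 1 in Morula and not TE, 2 in ICM and not TE, 17 at 14 hpa and not PN5 and 9 at 14 hpa and not CC. The stricter q gave 5 in 4-cell and not 2-cell, 6 in 8-cell and not 4-cell and 1 in Morula and not TE. At equal length the median difference of last exon and rest in KRAB-like members was 0 in CC and 0 in Morula.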

Other observations

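Other zinc finger genes can be set beside the Zfp genes. Autosomal genes of another name with KRAB-like sequence and at least 1 finger numbered 59, and their last exons were marked in 64.4% in CC, 5.08% at 6 hpa, 25.4% at 14 hpa, 5.08% each in 2-cell, 4-cell and 8-cell and 35.6% in Morula. ICM and TE stood at 55.9% each, and 0 of 59 were marked in PN5. Genes of another name with at least 5 fingers and no KRAB-like sequence numbered 123, with 6.50% marked in CC, 4.88% at 6 hpa, 10.6% in ICM, 9.76% in TE and 5.69% in PN5. A further 27 genes have a Zfp symbol with letters, with 33.3% marked in CC, 0 in 2-cell, 4-cell and 8-cell, 25.9% in ICM, 33.3% in TE and 14.8% in PN5.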
